A study of Mus musculus with 16 samples.

Results

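The enzymes that build triglyceride, and the lipid droplet protein Pnpla3, were followed in the liver and white adipose tissue of diet-induced obese mice given halofuginone or vehicle. The genes were chosen by symbol, as the glycerol-3-phosphate acyltransferases Gpam, Gpat3 and Gpat4, the next acyltransferase Agpat2, the lipins Lpin1 and Lpin2, the monoacylglycerol acyltransferase Mogat1, the diacylglycerol acyltransferases Dgat1 and Dgat2, and Pnpla3. All 10 were found, among 22322 genes, in the tables of both tissues. After the filter on low counts 9 of the 10 were tested in liver, where Pnpla3 had at most 2 counts in a library, and all 10 were tested in fat.

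The mice were injected intraperitoneally with halofuginone at 100 μg/kg, or with vehicle, every 2 days and sampled at 8 weeks. Both groups were diet-induced obese mice, so the vehicle group (labelled HFD) is the reference for the halofuginone group (labelled H100). Body weights at sampling are not given here, so the groups are not known to have been matched in weight after treatment. Poly(A)-selected RNA was sequenced from 5 vehicle and 5 halofuginone liver libraries and from 3 vehicle and 3 halofuginone libraries of fat. The labels give neither the strain, sex or age of the mice, nor the composition of the diet, nor the fat depot, and they do not say whether the libraries of a group came from separate animals, so p-values measure only the spread between these libraries.

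Triglyceride is made on a glycerol backbone. Glycerol-3-phosphate acyltransferases add the first fatty acid, acylglycerolphosphate acyltransferases the next, lipins remove the phosphate to give diacylglycerol, and diacylglycerol acyltransferases add the last fatty acid. Monoacylglycerol acyltransferases reach diacylglycerol by a separate route that starts from monoacylglycerol. Liver uses this triglyceride for lipid droplets and for secreted lipoproteins, and adipocytes store it.

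In liver, Gpat3 and Gpat4, which share the first step, moved in opposite directions with halofuginone. Gpat3 and Dgat1 rose, and Gpat4 and Mogat1 fell. These were 4 of the 9 enzymes tested, 2 in each direction, by edgeR's quasi-likelihood test at a Benjamini-Hochberg adjusted p under 0.05, while 23.2% of the 12311 liver genes tested passed the same test (12.7% higher and 10.5% lower). The median log2 fold change of the 9 enzymes was 0.0099, beside 0.0168 over all liver genes tested. In fat none of the 10 enzymes passed, and neither did any of the 14030 genes tested (0%). At an unadjusted p under 0.05 in liver, 2 enzymes were higher and 3 lower of the 9, with 39.1% of all genes past that mark, and DESeq2 called 4 of the 9, with 25.2% of the genes it could adjust. At an unadjusted p under 0.05 in fat (13.4% of all genes), 1 of the 10 enzymes was higher (Gpat3, 5.5% of all genes) and 3 were lower (Pnpla3, Lpin2 and Dgat2, 7.91% of all genes). DESeq2 called 4.71% of the fat genes it could adjust, among them Gpat3 and Pnpla3.

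The liver libraries held between 20309956 and 31980683 counts each, and those of fat between 17070614 and 21387799. Levels are given as CPM (counts scaled to a common depth with TMM factors) to compare 1 gene between libraries, and as the deposited FPKM, which also corrects for length, to compare genes. Halofuginone liver library 1 stood apart from the other 4 of its group: on the first principal component (56.2% of the variance) it lay at -23.3, next to the vehicle libraries (-36.0 to -28.3) and away from the other halofuginone libraries (32.4 to 58.0). The summed level of 6 amino acid stress genes (Atf4, Ddit3, Asns, Trib3, Sesn2 and Chac1) was 94.6 CPM in that library, inside the vehicle range of 77.1 to 118 CPM, and 490 to 660 CPM in the other 4. Without it the liver count rose to 5 of 9 enzymes, and 42.8% of the genes tested passed.

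Promoter sequences are shown for Gpat3 and Mogat1, the largest rise and the largest fall among the liver enzymes, and for Pnpla3, the largest difference in fat. They are the 250 bases before the annotated start in RefSeq (build GRCm38.p6, plus strand in each case), at chr5:100845979-100846228 for Gpat3, chr1:78510810-78511059 for Mogat1 and chr15:84167566-84167815 for Pnpla3. Capitals mark GC boxes, the letters GGGCGG on either strand.
Gpat3: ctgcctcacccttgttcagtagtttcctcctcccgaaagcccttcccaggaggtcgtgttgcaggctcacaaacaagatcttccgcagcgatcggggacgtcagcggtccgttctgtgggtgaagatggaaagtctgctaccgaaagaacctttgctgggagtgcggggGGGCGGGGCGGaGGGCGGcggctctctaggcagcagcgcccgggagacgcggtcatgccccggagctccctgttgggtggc
Mogat1: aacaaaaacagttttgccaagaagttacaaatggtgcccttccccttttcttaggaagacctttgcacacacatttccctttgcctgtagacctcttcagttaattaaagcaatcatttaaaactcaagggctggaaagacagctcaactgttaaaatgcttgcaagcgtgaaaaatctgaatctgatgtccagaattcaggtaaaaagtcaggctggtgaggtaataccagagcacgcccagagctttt
Pnpla3: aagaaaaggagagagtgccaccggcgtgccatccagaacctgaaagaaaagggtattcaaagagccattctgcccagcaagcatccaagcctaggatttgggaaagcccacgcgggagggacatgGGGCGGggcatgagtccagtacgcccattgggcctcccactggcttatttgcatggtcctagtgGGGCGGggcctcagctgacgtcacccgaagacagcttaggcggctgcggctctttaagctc
The Gpat3 promoter held 3 GC boxes, of which the first pair share a base, Pnpla3 held 2 and Mogat1 held 0, and 32.7% of 32851 promoters of this length held at least 1. GC content was 64.0% for Gpat3, 58.4% for Pnpla3 and 41.2% for Mogat1, beside a median of 52.4% over all of these promoters. None of the 3 held the letters of an ATF4 composite site (TGATGNAA, present in 3.45% of promoters), a sterol response element (TCACNCCAC, 1.05%), an E-box (CACGTG, 6.02%) or a PPAR direct repeat (AGGTCANAGGTCA, 0.0335%), searched on both strands. Among the 7 members with a promoter in the table, TGATGNAA lay in 1 of the promoters of Gpam and 1 of Lpin2, and CACGTG in 1 of Lpin2. A match of letters is a description and shows no bound factor.

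In vehicle liver Dgat2 had the highest level per length of the members, at 195 ± 18.3 FPKM (SD, n = 5). Its range did not meet that of the next member. Lpin2 (69.6 ± 12.0 FPKM), Agpat2 (66.6 ± 10.3), Gpat4 (55.7 ± 7.53), Lpin1 (48.7 ± 28.2) and Gpam (39.7 ± 3.87) followed, each overlapping its neighbour in the order. Dgat1 (5.71 ± 0.620 FPKM), Gpat3 (4.94 ± 1.71) and Mogat1 (4.06 ± 1.62) formed a lower set whose neighbouring ranges also overlapped. Pnpla3 was at most 0.03 FPKM. Whole steps were not ranked, as the members leave out other enzymes of a step, such as Agpat3 (112 ± 6.69 FPKM in vehicle liver). With halofuginone Dgat2 remained the highest at 218 ± 21.8 FPKM, Gpat3 stood at 26.4 ± 14.1 FPKM, between Gpat4 (32.0 ± 13.1) and Lpin1 (18.0 ± 18.1) with overlapping ranges, and Mogat1 at 0.508 ± 0.309 FPKM lay below all but Pnpla3.

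In vehicle fat Dgat2 was again highest at 219 ± 103 FPKM (SD, n = 3), apart from the next gene, and Agpat2 (74.3 ± 30.2), Lpin1 (71.4 ± 32.0), Dgat1 (40.6 ± 17.2), Gpat4 (37.7 ± 14.9), Pnpla3 (27.1 ± 11.5), Gpam (15.1 ± 5.19), Gpat3 (14.6 ± 6.13), Mogat1 (9.33 ± 5.32) and Lpin2 (6.89 ± 1.02) each overlapped the next. With halofuginone Dgat2 in fat was 102 ± 41.8 FPKM and overlapped Lpin1 at 62.7 ± 13.4 FPKM. The liver and fat values came from tables that the authors normalized separately, so levels between the tissues are set side by side without a test.

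In the first step Gpat3 and Gpat4 moved apart. Gpat3 (ENSMUSG00000029314) encodes an acyltransferase of the endoplasmic reticulum. Its level in vehicle liver libraries 1 to 5 was 23.6, 10.2, 11.8, 14.6 and 14.6 CPM. In the halofuginone libraries it was 11.4, 62.0, 98.9, 80.1 and 91.9 CPM. Halofuginone library 1 lay among the vehicle libraries and the other 4 lay above all of them. The log2 fold change was 2.20 (SE 0.46), a 4.6-fold rise, with an adjusted p of 0.0105 in edgeR's quasi-likelihood test. Without halofuginone liver library 1 it was 2.45 with an adjusted p of 2.84e-05, and the call held with each of the 10 liver libraries left out in turn.

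Gpat4 (ENSMUSG00000031545), the other endoplasmic reticulum enzyme of this step, moved the opposite way. Vehicle liver libraries 1 to 5 held 214.6, 215, 167, 165 and 169.9 CPM. Halofuginone libraries held 175, 69.9, 79.4, 98.5 and 84.6 CPM. Again library 1 of the halofuginone group lay inside the vehicle range, while the other 4 lay below every vehicle library. Its log2 fold change was -0.88 (SE 0.23), 1.84-fold lower, with an adjusted p of 0.0229. The call was lost without vehicle library 2 (0.0567) or halofuginone library 3 (0.0631), 4 (0.0510) or 5 (0.0588), and without halofuginone library 1 the log2 fold change was -1.19 with an adjusted p of 9.23e-05.

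Gpam (ENSMUSG00000024978) encodes the acyltransferase of the mitochondrial outer membrane. Its level was 163, 153, 158, 187 and 166 CPM in vehicle liver and 189, 130.0, 229, 171 and 177 CPM with halofuginone. The groups overlapped, and the log2 fold change of 0.12 (SE 0.14) did not pass the test (adjusted p 0.566).

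**Figure D1:**
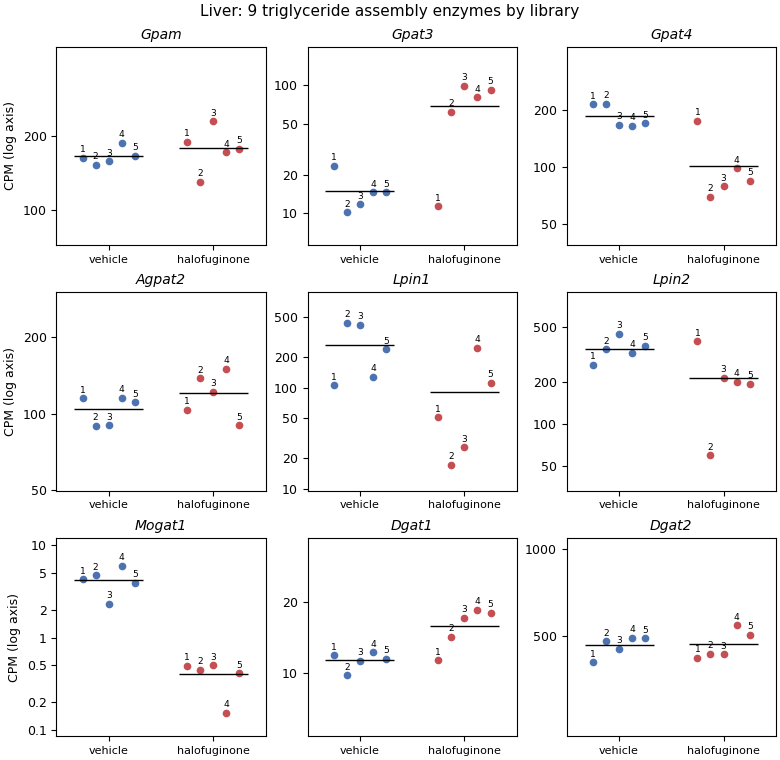
Level of the 9 tested triglyceride assembly enzymes in liver, as CPM on a log axis, with a point per library (5 vehicle, 5 halofuginone, numbered as labelled) and a line at each group mean. Each panel has its own range. Halofuginone library 1 lies at 11.4 CPM for Gpat3 and 175 CPM for Gpat4, inside the vehicle range of both genes, and Mogat1 is the gene whose groups do not overlap.

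Together the 3 acyltransferases had a summed level per length of 100.3 ± 9.04 FPKM in vehicle liver and 104 ± 19.1 FPKM with halofuginone (SD, n = 5 each), while its make-up differed. Gpat3 made 4.89 ± 1.40% of the sum in vehicle liver and 25.3 ± 12.0% with halofuginone, from 3.84% in library 1 to 31.6%. Gpat4 made 55.4 ± 4.12% and 31.3 ± 12.9%, and Gpam 39.7 ± 3.91% and 43.5 ± 2.37%. Within a library the ratio of Gpat3 to Gpat4 ran from 0.0505 to 0.124 in vehicle liver. It was 0.0715 in halofuginone library 1 and 0.958 to 1.49 in the other 4. The mean log2 ratio differed by 3.00 (two-sided exact permutation test, p = 0.0397, 0.106 after Benjamini-Hochberg adjustment over 8 ratio tests). The log2 ratio of Gpam to Gpat4 differed by 1.03 (exact p = 0.0238, adjusted 0.0952), and neither ratio passed at 0.05 with all libraries. Without halofuginone liver library 1, the single library of its group inside the vehicle range of both ratios, the differences were 3.81 and 1.26. That library was singled out from these same data, and without it the groups do not overlap. Each exact permutation p was then the smallest possible (adjusted 0.0423), so it adds no further support.

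In fat Gpat3 was 46.7, 41.1 and 23.5 CPM in vehicle libraries 1 to 3 and 72.3, 90.1 and 88.2 CPM with halofuginone. The groups did not overlap, as for 10.2% of the fat genes tested that were higher in every halofuginone library. On the log2 scale the change of 1.17 (SE 0.27) had an adjusted p of 0.177 with edgeR and 0.00483 with DESeq2. Gpat4 in fat was 156, 177 and 88.7 CPM against 137, 101 and 143 CPM, a log2 fold change of -0.14 (SE 0.28, adjusted p 0.870) whose sign turned without vehicle fat library 2 (0.056) or halofuginone fat library 2 (0.031). The ratio of Gpat3 to Gpat4 in fat ran from 0.344 to 0.448 with vehicle and from 0.687 to 1.44 with halofuginone, a log2 difference of 1.31. With 3 libraries against 3 the exact test cannot give a p under 0.1, and it gave that value (adjusted 0.16).

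Gpam in fat rested on a single library. It was 84.7, 124 and 68.0 CPM with vehicle and 78.9, 77.2 and 322 CPM with halofuginone, so halofuginone fat library 3 was far above the other 5. Its log2 fold change was 0.79 (SE 0.59, adjusted p 0.615) with all libraries and -0.22 without that one.

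Agpat2 (ENSMUSG00000026922), the enzyme whose human loss causes a congenital lack of fat tissue, showed no call in either tissue. In liver it ranged from 89.8 to 115 CPM with vehicle and from 90.2 to 149.9 CPM with halofuginone, a log2 fold change of 0.21 (SE 0.15, adjusted p 0.315 by edgeR). In fat it was 100.2, 157 and 78.2 CPM against 51.8, 107.5 and 101 CPM, a log2 fold change of -0.37 (SE 0.36, adjusted p 0.714) that was between -0.57 (without vehicle library 3) and -0.040 (without vehicle library 2) with each fat library left out. Both groups overlapped in both tissues.

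The lipins varied widely within groups. Lpin1 (ENSMUSG00000020593) encodes a phosphatidate phosphatase that also acts in the nucleus as a coactivator of transcription. It was 105, 436, 416, 127 and 239 CPM in vehicle liver libraries 1 to 5. With halofuginone it was 50.9, 17.3, 25.8, 247 and 112 CPM. Halofuginone libraries 1 to 3 lay below every vehicle library, and libraries 4 and 5 lay inside the vehicle range. A log2 fold change of -1.55 (SE 0.68) had an adjusted p of 0.117, and it was -2.38 with an adjusted p of 0.0342 without halofuginone library 4.

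Lpin2 (ENSMUSG00000024052), a further lipin with the same activity, was 269, 347, 447, 326 and 366 CPM in vehicle liver. With halofuginone it was 395, 59.5, 216, 202 and 195 CPM. Halofuginone library 1 was again inside the vehicle range and the other 4 below it. The log2 fold change of -0.72 (SE 0.36) had an adjusted p of 0.167, and without halofuginone library 1 it was -1.08 with an adjusted p of 0.0193. The summed level of both lipins was 118 ± 37.4 FPKM with vehicle and 63.8 ± 30.0 FPKM with halofuginone. The ratio of Lpin1 to Lpin2 ran from 0.358 to 1.18 and from 0.115 to 1.12, a difference of -1.01 on the log2 scale (exact permutation p = 0.198, adjusted 0.265).

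In vehicle fat Lpin1 made 89.3 ± 7.14% of the lipin sum in FPKM (SD, n = 3) and Lpin2 10.7 ± 7.14%. In vehicle liver Lpin1 made from 26.4% to 54.2% of that sum, so neither lipin led in every library there. Lpin2 in fat was 31.6, 29.2 and 44.3 CPM with vehicle and 17.3, 24.8 and 26.1 CPM with halofuginone. All 3 halofuginone libraries lay below all 3 vehicle libraries, as for 10.4% of the fat genes tested. This was a log2 fold change of -0.62 (SE 0.24, adjusted p 0.331). Lpin1 in fat was 489, 469.6 and 192 CPM against 273, 313 and 396 CPM, with overlapping groups (log2 fold change -0.23, SE 0.36, adjusted p 0.831). It lay between -0.55 without vehicle library 3 and -0.012 without vehicle library 1.

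Mogat1 (ENSMUSG00000012187), the enzyme of the monoacylglycerol route, had the largest liver change of the 9. It was 4.28, 4.71, 2.33, 5.97 and 3.90 CPM in vehicle liver libraries 1 to 5, from 50 to 160 counts. It was 0.497, 0.447, 0.501, 0.154 and 0.410 CPM with halofuginone, from 4 to 14 counts. Every halofuginone library lay below every vehicle library, library 1 included, and Mogat1 was the only tested member with that separation in liver (6.55% of the genes tested were lower without overlap). The log2 fold change was -3.39 (SE 0.32), 10.5-fold lower, with an adjusted p of 0.000421 in edgeR's quasi-likelihood test, and it lay between -3.56 and -3.20, called each time, with each liver library left out in turn. On log2 of FPKM plus 1 the size was smaller, as low values are compressed on that scale (-1.70, still called).

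Mogat1 in fat was 9.83, 13.5 and 3.46 CPM with vehicle and 7.42, 4.69 and 8.26 CPM with halofuginone. The groups overlapped and the log2 fold change of -0.40 (SE 0.49) had an adjusted p of 0.786. Of the 9 enzymes tested in both tissues, Mogat1 was also the single one whose effects differed by test: the fat effect minus the liver effect was 2.97 on the log2 scale (SE 0.60), with an adjusted p of 0.0330 in 1 edgeR fit of all 16 libraries, in which 0.949% of the 14853 genes tested passed. That call held in 7 of the 16 fits with a library left out and was lost in 9. The contrast stayed between 2.58 and 3.42 with each of the 16 left out, and its adjusted p passed 0.05, reaching at most 0.0689, without vehicle liver library 1, 2, 4 or 5, halofuginone liver library 3, 4 or 5, vehicle fat library 1 or halofuginone fat library 1.

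In the last step Dgat1 rose in liver and Dgat2 gave no call. Dgat1 (ENSMUSG00000022555), known for handling fatty acids taken up from outside the cell, was 11.9, 9.82, 11.3, 12.2 and 11.5 CPM in vehicle liver. With halofuginone it was 11.3, 14.2, 17.1, 18.5 and 18.0 CPM. Library 1 of the halofuginone group was again inside the vehicle range, and the other 4 were above every vehicle library. Dgat1 thus had a log2 fold change of 0.48 (SE 0.14, adjusted p 0.0290 by edgeR), a 1.39-fold rise. The call was lost without vehicle library 1 (0.0505), 2 (0.0771), 3 (0.0591) or 5 (0.0577) or halofuginone library 3 (0.0692), 4 (0.0710) or 5 (0.0719), and in 1 fit of all groups (0.169).

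Dgat2 (ENSMUSG00000030747), known for handling newly made fatty acids, was 406, 480.3, 453, 494 and 490.3 CPM in vehicle liver and 421, 435, 433, 545 and 505 CPM with halofuginone. The groups overlapped throughout, and the log2 fold change was 0.0099 (SE 0.12, adjusted p 0.959). Dgat1 made 2.86 ± 0.363% of the DGAT sum in FPKM with vehicle and 3.88 ± 0.506% with halofuginone (SD, n = 5 each). The ratio of Dgat2 to Dgat1 ran from 28.4 to 40.8 in vehicle liver and from 21.2 to 31.0 with halofuginone. The log2 ratio differed by -0.45 (exact permutation p = 0.0159, adjusted 0.0952), and by -0.53 without halofuginone library 1 (adjusted exact p 0.0423). That library was the single one of its group inside the vehicle range. Without it the exact p was the smallest possible and adds no further support.

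**Figure D2:**
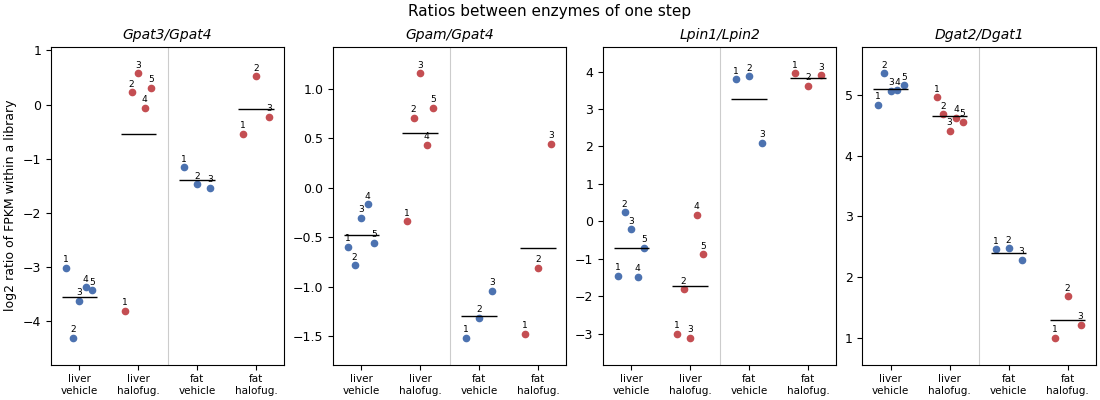
Log2 ratio of FPKM between enzymes of a single step within each library, in 4 panels, for vehicle and halofuginone libraries of liver (5 and 5) and fat (3 and 3), with a line at each group mean and each panel on its own scale. Gpat3 to Gpat4 lies from 0.958 to 1.49 as a plain ratio in 4 halofuginone liver libraries and at 0.0715 in library 1, and Dgat2 to Dgat1 in fat has groups that do not overlap.

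In fat Dgat2 had the larger difference of the pair, without passing the test. The vehicle libraries held 500.0, 718 and 281 CPM and the halofuginone libraries 125, 251.5 and 302 CPM. Vehicle fat library 3 lay between the halofuginone values, so the groups overlapped, and the log2 fold change of -1.14 (SE 0.43) had an adjusted p of 0.334. Dgat1 in fat was 76.5, 108 and 48.0 CPM against 52.1, 65.2 and 109 CPM, a log2 fold change of -0.04 (SE 0.37, adjusted p 0.974) whose sign turned under other settings. Within a library the separation was complete: the ratio of Dgat2 to Dgat1 was 4.88 to 5.55 with vehicle and 2.00 to 3.22 with halofuginone, a log2 difference of -1.10 (exact permutation p = 0.1, the smallest possible, adjusted 0.16). Dgat1 thereby made 15.9 ± 0.959% of the DGAT sum in vehicle fat and 29.0 ± 4.91% with halofuginone (SD, n = 3 each). The Dgat2 effect in fat minus that in liver was -1.18 on the log2 scale (SE 0.40, adjusted p 0.161 by edgeR).

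Pnpla3 (ENSMUSG00000041653) encodes a lipid droplet protein with lipase and acyltransferase activity, whose common human variant is known for fatty liver. In fat it was 36.7, 49.9 and 21.6 CPM with vehicle and 8.78, 3.30 and 9.05 CPM with halofuginone. All 3 halofuginone libraries lay below all 3 vehicle libraries, a separation shared by 10.4% of the fat genes tested. The log2 fold change of -2.36 (SE 0.47), 5.13-fold lower, had an unadjusted p of 0.00153 and an adjusted p of 0.159 with edgeR. It passed with DESeq2 (adjusted p 0.000129) and in 1 edgeR fit of all 16 libraries (0.0114), and its size was between -2.62 and -1.98 with each fat library left out. In liver Pnpla3 had 0 counts in 6 of the 10 libraries and 1 or 2 in the rest, below the floor of 3 counts (0.0938 to 0.148 CPM), which covers counting error only. No change of Pnpla3 was detectable in liver at this depth, and no difference between the tissues is given for it.

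**Figure D3:**
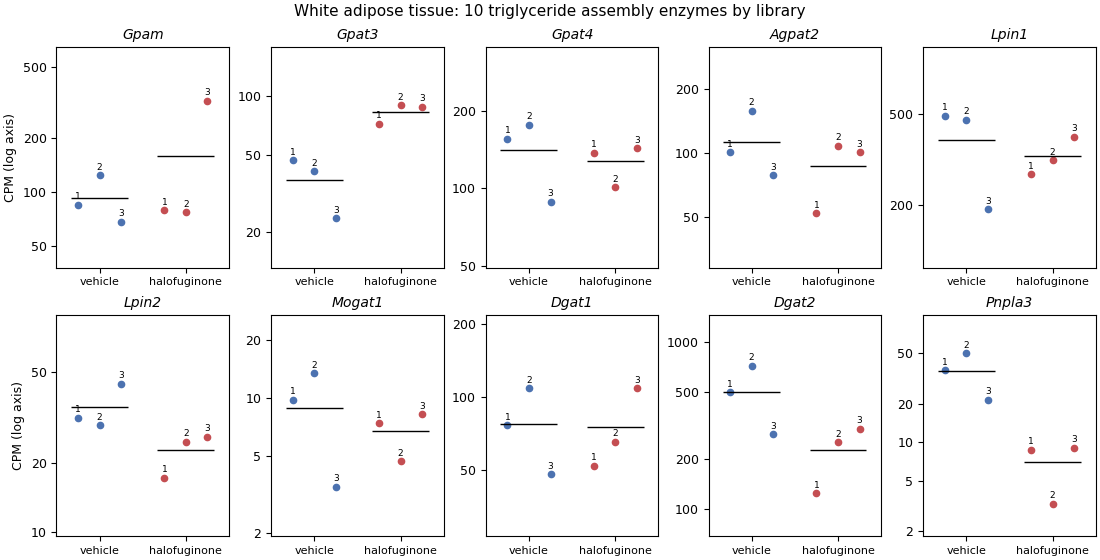
Level of the 10 triglyceride assembly enzymes in white adipose tissue, as CPM on a log axis, with a point per library (3 vehicle, 3 halofuginone, numbered as labelled) and a line at each group mean. Each panel has its own range. Gpat3 is higher in all 3 halofuginone libraries, Pnpla3 and Lpin2 are lower in all 3, and Gpam reaches 322 CPM in halofuginone library 3 alone. Of all fat genes tested, 10.2% are higher and 10.4% lower without overlap.

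Side by side, Gpat3 had a positive log2 fold change in both tissues, 2.20 in liver and 1.17 in fat, and the difference of -1.06 (SE 0.66) was not called (adjusted p 0.467 by edgeR, 0.0459 without halofuginone liver library 1). Lpin2 had values of -0.72 and -0.62, with a difference of 0.086 (SE 0.53, adjusted p 0.984). Apart from Mogat1, none of the other 8 enzymes tested in both tissues had a difference that passed, with adjusted p from 0.161 for Dgat2 to 0.984 for Lpin2.

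**Figure D4:**
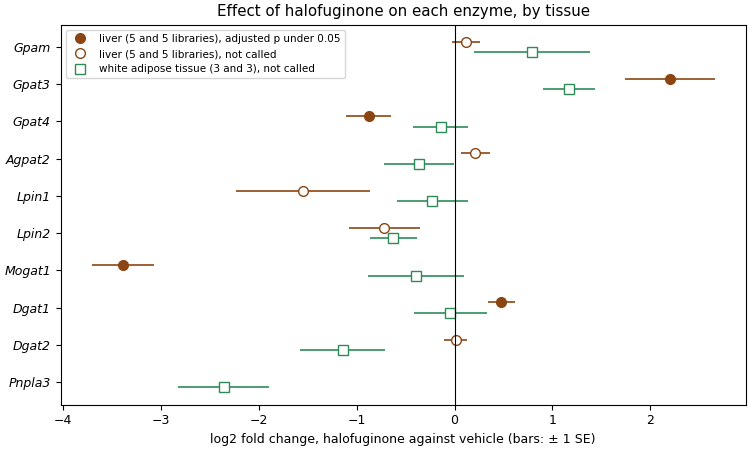
Log2 fold change of halofuginone against vehicle for each enzyme in liver (circles, 5 and 5 libraries) and white adipose tissue (squares, 3 and 3), with bars of 1 SE on each side and filled symbols for an edgeR adjusted p under 0.05. The 4 filled symbols are Gpat3 (2.20), Gpat4 (-0.88), Mogat1 (-3.39) and Dgat1 (0.48) in liver, and Pnpla3 has a value in fat alone.

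The enzymes that supply or share these steps also moved both ways in liver. Of 21 further genes of triglyceride assembly 19 were tested, 3 rose and 4 fell (12.7% and 10.5% of all liver genes tested), and the median log2 fold change was -0.12. The risers were Acsl4 (log2 fold change 1.54, SE 0.39) and Acsl3 (0.82, SE 0.26), which activate long-chain fatty acids to their CoA esters, and the lipid phosphate phosphatase Plpp2 (0.64, SE 0.19), with adjusted p of 0.0209, 0.0418 and 0.0349 by edgeR. Acsl3 did not pass with limma on log2(FPKM + 1) (0.0569) or log2(FPKM + 0.1) (0.0574). Those that fell were the glycerol kinase Gk (-1.22, SE 0.33), the glycerol-3-phosphate dehydrogenase Gpd1 (-1.09, SE 0.27), the acyl-CoA synthetase Acsl5 (-1.07, SE 0.23) and the lipid droplet assembly gene Bscl2 (-0.53, SE 0.11), with adjusted p of 0.0249, 0.0188, 0.0114 and 0.0101. Gk and Gpd1 make the glycerol-3-phosphate that Gpam, Gpat3 and Gpat4 acylate. The list's calls numbered 14 (6 higher, 8 lower) without halofuginone liver library 1, where 42.8% of all genes tested passed. They numbered 4 without vehicle liver library 1 or 3 or halofuginone library 2, 3 without halofuginone library 5 and 2 without halofuginone library 3, and Acsl5 and Bscl2 were called each time.

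The branch that takes diacylglycerol or phosphatidate to phospholipids instead had 12 of 13 genes tested in liver, of which 0 rose and 3 fell, with a median log2 fold change of -0.33. Over all liver genes tested 23.2% were called and 10.5% were called lower, and the branch's 3 of 12 calls in all lay near the first of these shares. Chpt1 (-1.55, SE 0.31) and Cept1 (-0.83, SE 0.24), which use diacylglycerol to make phosphatidylcholine or phosphatidylethanolamine, and Pcyt1a (-0.66, SE 0.14), which makes the activated choline they use, had adjusted p of 0.0101, 0.0287 and 0.0117 by edgeR. Without halofuginone liver library 1 the branch had 1 higher and 6 lower, beside 42.8% of all genes called. Cept1 lost its call without each other liver library in turn, and Chpt1 and Pcyt1a kept theirs.

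Among 16 regulators of these genes 1 rose and 4 fell in liver (12.7% and 10.5% of all genes tested), with a median log2 fold change of -0.25. Mlx, the partner of the carbohydrate response factor encoded by Mlxipl, rose (0.83, SE 0.18, adjusted p 0.0134 by edgeR). Pparg, a fat cell factor also expressed in fatty liver, fell from 18.7 to 7.76 mean CPM (-1.26, SE 0.25, adjusted p 0.00947). Its groups did not overlap, as for 6.55% of the liver genes tested that were lower in this way. Insig1, which holds back the sterol response factors, fell by 1.07 on the log2 scale (SE 0.25, adjusted p 0.0156). Ppargc1a (-0.92, SE 0.31, adjusted p 0.0492) and Cebpb (-0.32, SE 0.10, adjusted p 0.0430) were nearer the threshold. Ppargc1a lost its call without each liver library except halofuginone library 1, and Cebpb without vehicle library 1, 2 or 3 or halofuginone library 2, 3, 4 or 5, in each case leaving 3 or 4 regulators called. Cebpb also did not pass with library size alone (-0.16, adjusted p 0.255), without a filter on low counts (0.0611), in 1 fit of all groups (0.172) or with limma on log2(FPKM + 1) (-0.16, 0.264) or log2(FPKM + 0.1) (-0.16, 0.265). Ppargc1a did not pass without that filter (0.0507) or in 1 fit of all groups (0.0525). Srebf1 (-0.41, SE 0.28, adjusted p 0.299) and Mlxipl (0.49, SE 0.17, adjusted p 0.0578) did not pass. In fat none of these lists had a call by edgeR. At an unadjusted p under 0.05 in fat the counts were 0 higher and 1 lower of 19 for the other assembly genes, 0 and 3 of 13 for the phospholipid branch and 5 and 2 of 16 for the regulators, beside 5.5% higher and 7.91% lower over all fat genes tested.

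The liver genes whose pattern over the 10 libraries was most like that of Gpat3, Mogat1 or Dgat1 were found by the root mean square difference in log2 CPM, each gene centred on its mean, among 8816 genes (8817 for Mogat1) of at least 5 mean CPM. For Gpat3 they were Gramd1c (0.316), Ctsl (0.344) and Avpi1 (0.351). For Mogat1 they were Lgals1 (0.403), Clstn3 (0.554) and Cyp3a11 (0.607), and for Dgat1 they were Fdx1l (0.0747), Pacsin2 (0.0824) and Cops3 (0.0829). These are descriptions with no test, and genes that change more have larger differences.

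Markers of cell types moved beside several of these results. In liver the summed level of 10 hepatocyte markers was 124543 to 136440 CPM with vehicle, 118904 CPM in halofuginone library 1 and 44020 to 92186 CPM in the other 4, the libraries in which Gpat3 was high and Gpat4 low. Of those 10 markers 2 fell (Ttr and Hnf4a) and 1 rose (Tat), beside 23.2% of all liver genes called. The 10 adipocyte markers summed to 70.5 to 147 CPM in vehicle liver and 24.6 to 74.3 CPM with halofuginone, beside the fall of Mogat1 and Pparg. The defining adipocyte genes Adipoq, Plin1, Lep and Retn were at or near 0 in both liver groups, and 3 of the 5 markers tested (Lipe, Fabp4 and Cfd) fell. The 10 macrophage markers in liver summed to 387 to 537 CPM with vehicle, 738 CPM in halofuginone library 1 and 392 to 442 CPM in the other 4. Of them 1 rose and 0 fell by call. At an unadjusted edgeR p under 0.05, 1 was higher and 2 were lower, beside 21.1% and 18% of all liver genes tested. The 7 fibroblast and stellate cell markers summed to 212 to 294 CPM with vehicle and 143 to 233 CPM with halofuginone, and 3 of them fell (Col1a1, Col3a1 and Pdgfrb). Of 6 endothelial markers in liver Kdr rose and Pecam1 and Cdh5 fell. Beside these counts of called markers, 12.7% of all liver genes tested were called higher and 10.5% lower.

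In fat, vehicle library 3 had the lowest level of the 3 vehicle libraries for 9 of the 10 enzymes and the highest for Lpin2, and it was also the library with the fewest adipocyte and the most macrophage markers. The adipocyte sum was 22912, 22915 and 12142 CPM in vehicle libraries 1 to 3 and 20364 to 24875 CPM with halofuginone. The macrophage sum was 5653, 4674 and 10335 CPM with vehicle and 3127 to 3285 CPM with halofuginone, and 8 of the 9 macrophage markers tested were lower at an unadjusted p under 0.05, beside 7.91% of all fat genes. The fibroblast and stellate cell sum was 3477 to 4982 CPM with vehicle and 2573 to 3090 CPM with halofuginone, and the muscle sum 88.7 to 171 CPM and 51.1 to 59.1 CPM, both without overlap. Of these markers 2 of 6 (Col1a1 and Col3a1) and 1 of 5 (Acta1) were lower at the same mark. The summed level of the 10 hepatocyte markers went the other way in fat, also without overlap. It was 1538, 1996 and 547 CPM in vehicle libraries 1 to 3 and 2120 to 3725 CPM with halofuginone. Of the 5 markers tested, 0 were higher and 1 was lower at that mark, so the sum does not describe these markers as a set. The 6 epididymis markers summed to 76.2 CPM in vehicle library 3 and to at most 12.3 CPM in the other 5. In these bulk samples fewer cells of a type and less RNA per cell cannot be told apart, and the part of these markers in the enzyme results was not tested. Without vehicle fat library 3 the log2 fold change in fat was 0.93 for Gpat3, -1.43 for Dgat2 and -2.62 for Pnpla3.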

How the data were processed

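Per the labels' protocols, RNA was taken with Trizol, captured on oligo(dT) beads and made into libraries with a NEBNext Ultra kit. The submitters' processing notes name fastp 0.18.0, Bowtie2 2.2.8, HISAT2, StringTie 1.3.1, RSEM and the build mm39. The strand and the annotation release are not given in the sources used here, so reads of overlapping genes, antisense genes and near-identical paralogs could be split. The authors deposited 1 table per tissue, holding for every library its counts and its FPKM values, per the file headers. The deposited counts are whole numbers, but in each library 1 to 31 genes with an FPKM above 0 had no count, and rounded estimates are therefore possible. Symbols were found for 22267 of the 22322 identifiers, and 0 columns were left unmapped. No gene coordinates of mm39 were used here, and the promoter sequences come from RefSeq on GRCm38.p6, with entries for 7 of the 10 members.

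Separate fits of liver and fat used edgeR 4.0.16 under R 4.3.3 (filterByExpr, TMM, glmQLFit, glmQLFTest, two-sided, Benjamini-Hochberg over all genes tested), with a call at an adjusted p under 0.05. The fat effect minus the liver effect came from 1 joint fit of the 16 libraries, taken as independent. SE was obtained from the quasi-likelihood F as the size of the log2 fold change over its root. Ratios of FPKM within a library were compared by a two-sided exact permutation test. The smallest p it can give is 0.00794 for 5 against 5 and 0.1 for 3 against 3. All members are named, and of the lists of other assembly genes, phospholipid branch genes and regulators the genes called in liver. The members and lists were chosen with earlier results of these data known. Marker lists (hepatocyte, adipocyte, macrophage, lymphocyte, endothelium, fibroblast and stellate cell, muscle, epididymis, mammary and skin epithelium) were used to look at cell types. Summed over its markers, muscle was at most 0.653 CPM in liver, epithelium at most 0.0328 and 23.0 CPM, lymphocyte 0.902 to 7.45 and 11.6 to 27.5 CPM, and endothelium 181 to 219 CPM with vehicle and 162 to 222 CPM with halofuginone in liver, and 493 to 1299 and 1028 to 1451 CPM in fat. Epididymis was at most 0.224 CPM in liver.

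Alternatives were DESeq2 1.42.0, its size factors in edgeR, library size alone, TMM within each tissue, other filters, limma 3.58.1 on log2 of FPKM plus 1 or 0.1, a replicate block, 1 fit of all groups, robust dispersion and each library left out. The counts of called list genes under these settings were added after seeing the data. Libraries of a group differed by more than sampling noise (smallest chi-square per degree of freedom 31.2 in liver and 53.1 in fat). The code was tested on simulated data. The genes most like Gpat4 in pattern are not reported here.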

Additional observations from a re-analysis of the deposited data

Results flagged for a closer look

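In the halofuginone group of liver, library 1 stood far from the other 4 for Gpat4, at 175 CPM with the next at 98.5 CPM, a gap of 0.729 of the group's range. The log2 ratio of Gpat3 to Gpat4 in the same library was -3.80, with the next at -0.061 and a gap of 0.854 of the range. Both values lie inside the vehicle range. For Mogat1 it was halofuginone liver library 4 that lay apart, at 0.154 CPM (4 counts) with the next at 0.410 CPM and a gap of 0.737 of the range. Chance marks about 1 in 20 groups in this way, which is 1.3 of the 26 groups of 5 libraries examined, and 3 were found. These groups are not independent, as they include ratios of the same genes. The Gpat4 flag and the ratio flag come from the same gene and library, so the counts do not measure an excess over chance.

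The effect of halofuginone on Mogat1 differed between the tissues by 2.97 on the log2 scale, fat minus liver, in the test of the difference itself. The liver log2 fold change was -3.39 with every treated library below every vehicle library, and the fat log2 fold change was -0.40 with overlapping groups. The call of the difference (adjusted p 0.0330 by edgeR) was lost in 9 of the 16 fits with a library left out. It was also lost with the replicate block (adjusted p 0.160).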

How the results depend on the processing

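The libraries' number limits these results, mainly in fat, and values near the threshold should be read with the settings below. Leaving out 1 library at a time gave 2 to 5 called enzymes in liver (1275 to 5312 genes in all), 0 in fat (0 to 1 genes in all) and 0 to 2 for the difference between tissues (34 to 1053 genes in all). Gpat3 and Mogat1 in liver were called each time. Whether the replicate numbers pair the samples is not known here. The correlations of same-numbered libraries ran from -0.156 to 0.0566 in liver and from -0.57 to 0.111 in fat. Those of differently numbered libraries ran from -0.154 to 0.18 and from -0.457 to 0.516. With so few libraries these values showed no pairing but cannot exclude it. With the replicate block 2 liver enzymes were called (Gpat4 and Mogat1), Gpat3 had an adjusted p of 0.0524 and Dgat1 of 0.0506, and for the difference between tissues 0 enzymes and 20 genes passed, Mogat1 at 0.160.

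In fat, DESeq2 called 671 genes and 2 enzymes (Gpat3 and Pnpla3), 1 fit of all groups 334 genes and 1 enzyme (Pnpla3), limma on log2(FPKM + 1) 13 genes, and no filter on low counts 1 gene. DESeq2 called 685 genes for the difference between tissues. Of liver calls 54.7% were higher with TMM and 76.9% with library size alone, which moved the median log2 fold change of all liver genes from 0.0168 to 0.173. Of the liver lists, the regulators went from 5 called to 3 without a filter on low counts and in 1 fit of all groups, and the phospholipid branch from 3 to 5 with DESeq2, the replicate block and 1 fit of all groups. Acsl3, Ppargc1a and Cebpb lost their calls with the block (0.0526, 0.0582 and 0.0976). With library size alone the 4 called enzymes kept their calls and signs.

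Signs turned only for enzymes without a call. In liver Dgat2 was -0.0012 with DESeq2 size factors and between -0.065 and 0.045 with a library left out. In fat Dgat1 was 0.0092 with library size alone, 0.026 and 0.028 with limma on log2(FPKM + 1) and log2(FPKM + 0.1), and between -0.39 and 0.27 with a library left out. Under leaving out, Gpat4 in fat lay between -0.39 and 0.056, Mogat1 in fat between -0.78 and 0.030, Gpam in fat between -0.22 and 1.15, Lpin2 between tissues from -0.15 to 0.42, Gpam between tissues from -0.40 to 1.01, and the Lpin1 to Lpin2 ratio in fat from -0.011 to 0.87. Among liver ratios, Dgat2 to Dgat1 lay between -0.53 and -0.39, Gpat3 to Gpat4 between 2.72 and 3.81, and Gpam to Gpat4 between 0.88 and 1.26. Each passed only without halofuginone library 1, where the groups separate fully and the exact p is the smallest possible.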
